A study of Mus musculus with 11 samples.

Results

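The 9 genes described here encode proteins of the colonic mucus and proteins that make or hydrate it: Muc2, Fcgbp, Zg16, Tff3, Spink4, Agr2, Muc4, Muc13 and Best2. They were taken by symbol from a count table of 54513 genes, and all 9 were in the table and passed the filter on low counts that left 19267 genes for testing. Messenger RNA had been sequenced from epithelial cells of the mouse colon, enriched on Percoll, a density medium used to reduce lymphocytes. The series title concerns miR-181 and colonic inflammation. Genotype and treatment were varied, which gave 11 libraries in 4 groups.

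The DSS DKO group (n = 3) and the baseline DKO group (n = 3) came from double knockout mice that lack the miR-181a1-b1 and miR-181a2-b2 clusters. The DSS WT group (n = 3) and the baseline WT group (n = 2) came from wild-type mice. DSS mice had 2% dextran sulphate sodium, a polysaccharide that injures the colonic epithelium, for 7 days and then 2 days of recovery, and baseline mice were not given DSS. The labels give no age, strain or litter, do not say in which cells the clusters are deleted, and do not say whether a library is 1 mouse. The p-values therefore cover the spread among these libraries, which may be partly technical.

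Goblet cells secrete the mucus that separates colonic bacteria from the epithelium. Its scaffold is a net of the gel-forming mucin MUC2, which is folded in the endoplasmic reticulum with the help of the disulphide isomerase AGR2. MUC2 is then packed into granules and released with FCGBP, ZG16, TFF3 and other proteins. Transmembrane mucins such as MUC4 and MUC13 form the glycocalyx on the cell surface. BEST2 is a bicarbonate and chloride channel of goblet cells, and bicarbonate helps packed MUC2 to unfold on release.

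The deleted clusters encode miR-181a and miR-181b, whose mature 5′ strands share a seed, the bases 2 to 8 that pair with target messages. The 5′ strands of miR-181c and miR-181d, encoded on chr8 outside the deleted clusters, carry the same seed. The sequences of the miR-181a and miR-181b strands are shown, from RefSeq on GRCm38.p6. They serve to set the seed against the 3′ UTRs of the mucus genes, and the capitals mark the seed. The first comes from chr1:137966468-137966490 and chr2:38852741-38852763, and the second from chr1:137966650-137966673 and chr2:38853845-38853868, all on the plus strand.
mmu-miR-181a-5p: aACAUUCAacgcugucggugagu
mmu-miR-181b-5p: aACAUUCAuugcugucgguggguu
The longest annotated 3′ UTRs of the 9 genes, in GENCODE M21, run from 93 bases in Spink4 to 1060 in Muc13. The 6-letter core match GAATGT was in 0 of the 9, so the longer matches were too. Among all genes, 6.7% of 3870 with 3′ UTRs of 93 to 370 bases held it, and 31.8% of 642 with 1000 to 1100 bases. Coding sequences and other UTR forms were not searched.

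Libraries had 41631951 to 52761900 counts, and levels are given as CPM, a gene's counts relative to the library total, scaled by the trimmed mean of M-values (TMM). The summed CPM of 7 pan-epithelial markers (Epcam, Cdh1, Krt8, Krt18, Krt19, Vil1 and Cldn7) was 10343 to 11905 in DSS DKO, 12200 to 13524 in DSS WT, 14174 to 16006 in baseline DKO and 11794 to 13283 in baseline WT, and none of the 7 was at 0 in any group. Rn18s-rs5, a ribosomal RNA entry, took 23.05% and 8.46% of the counts in baseline DKO replicates 1 and 2 and at most 1.59% elsewhere. Baseline libraries carried a male and DSS libraries a female pattern of sex-linked genes, so an effect of DSS and a difference of sex cannot be told apart in any comparison of DSS with baseline. Nor can a genotype difference in the effect of DSS be told apart from a genotype difference in the effect of sex. In bulk RNA, fewer goblet cells and less message per goblet cell cannot be told apart either.

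Together the 9 genes took 0.565% to 0.628% of all counts in DSS DKO and 0.699% to 0.845% in DSS WT, against 1.76% to 2.33% in baseline DKO and 2.76% to 2.92% in baseline WT. These totals include Rn18s-rs5, whose 23.05% and 8.46% in baseline DKO replicates 1 and 2 lower the shares of those libraries. The make-up of the summed share differed as well. Muc2 and Fcgbp held 27.3% to 38.0% of the counts of the 9 genes in DSS DKO and 27.2% to 37.4% in DSS WT, against 71.3% to 79.0% in baseline DKO and 80.7% to 81.3% in baseline WT. Per kilobase of annotated exon, Muc2 led the 9 genes at baseline, with 1373 ± 107 CPM per kilobase in DKO and 1775 ± 661 in WT (SD). After DSS the order per kilobase was led by Muc13 at 671 ± 43.8 and Agr2 at 628 ± 127 in DKO, which did not differ beyond their spread, and by Agr2 at 1102 ± 105 and Muc13 at 720 ± 16.1 in WT. The annotated transcripts of Muc2 are fragments, the longest of 2926 bases, so its level per kilobase is uncertain.

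**Figure D1:**
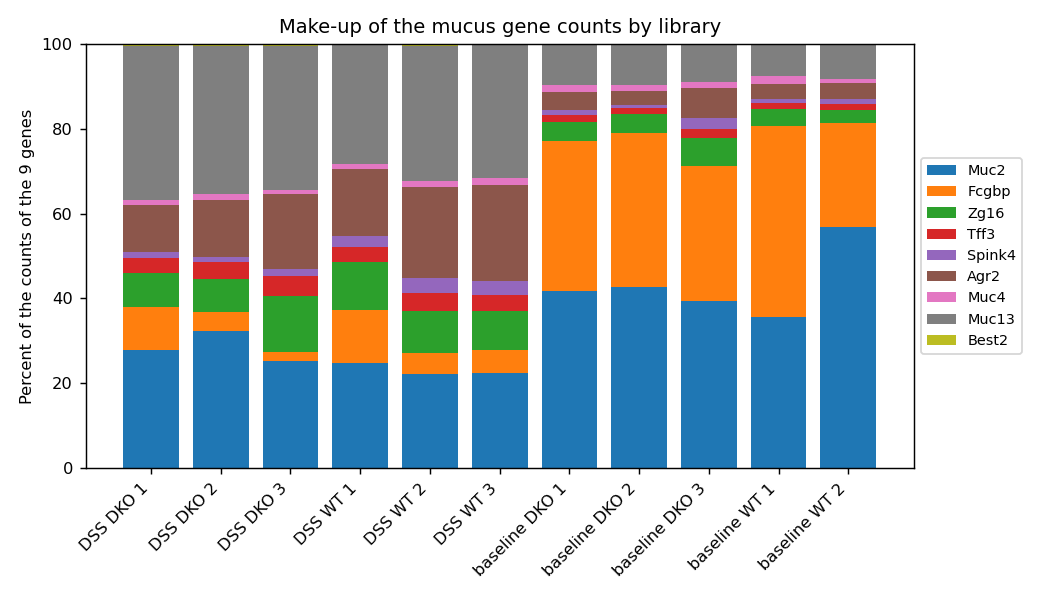
Share of each of the 9 mucus genes in their summed counts (percent, bars stacked to 100) in each of the 11 libraries, from DSS DKO at the left to baseline WT at the right. Muc2 and Fcgbp hold 71.3% to 81.3% of the bar in every baseline library and 27.2% to 38.0% in every DSS library, where Muc13 and Agr2 take most of the rest.

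Comparing DSS with baseline asks how the mucus genes stood after injury and 2 days of recovery. By the quasi-likelihood F-test of edgeR, with p-values adjusted by Benjamini and Hochberg's method over all genes tested, 7 of the 9 genes were lower and 0 higher in DSS DKO than in baseline DKO, where 11% of all genes tested were lower, 12.6% higher and 23.6% changed in either direction. In WT, 3 of the 9 were lower in DSS and 0 higher, against 16.5% of all genes lower, 16.9% higher and 33.4% changed. Muc2, Fcgbp and Muc4 were lower with DSS in both genotypes. With libraries scaled to equal pan-epithelial markers, the count in DKO was 1 higher, Muc13, and 5 lower, in a setting where 38.1% of all genes were higher and 5.94% lower. Before that scaling, 4 of the 7 markers were themselves lower with DSS in DKO and 2 in WT, and 0 were higher. The scaling moved the median log2 fold change of all genes with DSS by 0.42 in DKO and 0.13 in WT. The median log2 fold change of the 9 genes was -1.15 in DKO and -0.38 in WT, and that of all genes tested was 0.01 in DKO and -0.01 in WT. The DSS and the baseline libraries of the 9 genes did not overlap for 7 genes in DKO, where this held for 39.9% of all genes, and for 5 in WT, where it held for 63.5%.

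Muc2, the gel-forming mucin (chr7:141690340-141754693, plus strand, GRCm38), was at 1658, 1883 and 1411 CPM in DSS DKO and 1988, 1532 and 1534 CPM in DSS WT, against 9481, 10651 and 9220 CPM in baseline DKO and 9317 and 15982 CPM in baseline WT. Every DSS library lay below every baseline library, and the DSS libraries of the genotypes overlapped. The log2 fold change with DSS was -2.57 ± 0.21 (SE) in DKO (adjusted p = 1.80e-05) and -2.91 ± 0.22 in WT (adjusted p = 3.06e-05), which is 5.93-fold and 7.51-fold lower. Between DSS DKO and DSS WT the difference was -0.03 ± 0.20 (adjusted p = 0.943).

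Fcgbp, which encodes a large goblet cell protein bound to the MUC2 net (chr7:28071236-28120862, plus strand), was at 608, 263 and 120 CPM in DSS DKO and 1004, 339 and 356 CPM in DSS WT, against 8006, 9013 and 7417 CPM in baseline DKO and 11825 and 6882 CPM in baseline WT. All DSS libraries were below all baseline libraries, and replicate 1 was the highest DSS library in both genotypes. Fcgbp had the largest fall of the 9, with a log2 fold change of -4.62 ± 0.68 in DKO (adjusted p = 0.00186) and -4.05 ± 0.69 in WT (adjusted p = 0.00277). It also had the widest spread after DSS, with a highest library 5.08 times the lowest in DKO and 2.96 times in WT, against 1.22 and 1.72 times at baseline.

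Muc4, a transmembrane mucin of the cell surface (chr16:32735886-32782391, plus strand), was at 64.8, 84.8 and 59.5 CPM in DSS DKO and 95.6, 94.3 and 108 CPM in DSS WT, against 348, 368 and 318 CPM in baseline DKO and 494 and 276 CPM in baseline WT. DSS libraries were below baseline libraries in both genotypes, and the DSS DKO libraries lay below the DSS WT libraries. The log2 fold change with DSS was -2.31 ± 0.20 in DKO (adjusted p = 3.58e-05) and -1.96 ± 0.21 in WT (adjusted p = 0.000199). Muc20, a mucin gene on the opposite strand, shares 627 exonic bases with Muc4. Muc20 had 1.32 to 4.79 CPM over all libraries, and since the strand setting of the counting is not given, reads of the shared bases cannot be assigned.

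The promoters of these genes, the 3 that were lower with DSS in both genotypes, are shown from RefSeq on GRCm38.p6, 250 bases before to 50 after the start, plus strand. Capitals mark CAGCTG, an E-box of the secretory fate factor ATOH1, and CCACCC, a core letter string of KLF4 sites, a goblet cell factor. They come from chr7:141690090-141690389, chr7:28070986-28071285 and chr16:32735636-32735935.
Muc2: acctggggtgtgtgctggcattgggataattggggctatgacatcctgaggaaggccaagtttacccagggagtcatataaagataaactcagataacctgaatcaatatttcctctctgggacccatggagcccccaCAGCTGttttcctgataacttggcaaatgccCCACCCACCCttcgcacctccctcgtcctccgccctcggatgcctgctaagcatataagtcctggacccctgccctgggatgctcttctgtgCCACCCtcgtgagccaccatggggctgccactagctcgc
Fcgbp: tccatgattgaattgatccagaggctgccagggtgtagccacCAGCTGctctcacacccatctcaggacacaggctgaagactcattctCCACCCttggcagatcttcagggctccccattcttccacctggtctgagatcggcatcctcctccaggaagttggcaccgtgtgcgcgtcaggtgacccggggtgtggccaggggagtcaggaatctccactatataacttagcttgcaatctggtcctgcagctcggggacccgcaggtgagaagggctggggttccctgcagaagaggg
Muc4: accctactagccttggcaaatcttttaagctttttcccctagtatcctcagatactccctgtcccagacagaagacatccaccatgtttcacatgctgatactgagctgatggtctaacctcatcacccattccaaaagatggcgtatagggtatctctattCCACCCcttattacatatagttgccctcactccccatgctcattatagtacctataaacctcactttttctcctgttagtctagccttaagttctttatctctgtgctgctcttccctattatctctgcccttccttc
Muc2 held CAGCTG once, with its first base at -112 from the start, and CCACCC at -81, -77 and 11, where the matches at -81 and -77 overlap. Fcgbp held CAGCTG at -208 and CCACCC at -161, and Muc4 held CCACCC at -88. On either strand, 16.3% of 32851 RefSeq promoters held CAGCTG and 31.5% held CCACCC, so these matches are common. The strings TGTTTAC for FOXA factors, TTTATGG for CDX2, TTCNNNGAA for STAT factors and TGACGTG for XBP1 and ATF6 were in 0 of these 3 windows and in 3.6%, 2.7%, 8.3% and 2.0% of all promoters. Of the other 6 genes, Agr2 and Muc13 had a RefSeq window, with CCACCC at -72 and 30 and TTTATGG at -48 in Agr2 and TTCNNNGAA at -140 in a window of Muc13. A match describes letters and not binding.

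Zg16 and Tff3 were lower with DSS in DKO. Zg16, a lectin that binds Gram-positive bacteria (chr7:127050156-127087328, minus strand), was at 481, 451 and 739 CPM in DSS DKO and 890, 675 and 638 CPM in DSS WT, against 1053, 1141 and 1513 CPM in baseline DKO and 1020 and 888 CPM in baseline WT. The DKO groups did not overlap, whereas DSS WT replicate 1 lay within the range of baseline WT. With DSS, Zg16 had a log2 fold change of -1.15 ± 0.21 in DKO (adjusted p = 0.00289) and -0.38 ± 0.23 in WT (adjusted p = 0.221). Tff3, a trefoil peptide that aids epithelial repair (chr17:31125306-31129646, minus strand), was at 201, 240 and 274 CPM in DSS DKO and 300, 297 and 258 CPM in DSS WT, against 366, 350 and 537 CPM in baseline DKO and 392 and 416 CPM in baseline WT. All DSS libraries lay below all baseline libraries. On the log2 scale its difference was -0.81 ± 0.17 in DKO (adjusted p = 0.00554) and -0.50 ± 0.18 in WT (adjusted p = 0.0527). The DKO call of Tff3 ended when libraries were scaled to equal pan-epithelial markers (adjusted p = 0.0828) and with GC-dependent offsets (adjusted p = 0.0677), and its WT value crossed the threshold in 11 other settings.

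Spink4, a goblet cell peptide with a serine protease inhibitor domain of the Kazal type (chr4:40920052-40931395, plus strand), was at 82.1, 72.4 and 88.9 CPM in DSS DKO and 200, 245 and 225 CPM in DSS WT, against 243, 181 and 557 CPM in baseline DKO and 221 and 287 CPM in baseline WT. The DSS DKO libraries were the lowest of all, and the DSS WT libraries lay within the range of the baseline libraries. With DSS the log2 fold change of Spink4 was -2.01 ± 0.36 in DKO (adjusted p = 0.00441) and -0.18 ± 0.39 in WT (adjusted p = 0.745). The difference between these effects was -1.83 ± 0.53 (adjusted p = 0.113), so it did not pass. That difference was -2.59 without baseline DKO replicates 1 and 2, which were high in Rn18s-rs5, but baseline DKO was then replicate 3 alone, the library highest in Spink4.

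Agr2, the isomerase that folds MUC2 (chr12:35992907-36004087, plus strand), was at 665, 781 and 988 CPM in DSS DKO and 1271, 1468 and 1531 CPM in DSS WT, against 1008, 775 and 1690 CPM in baseline DKO and 954 and 1100 CPM in baseline WT. DSS WT libraries were above the baseline WT libraries, and DSS DKO libraries overlapped those of baseline DKO, in which replicate 3 stood apart. With DSS the log2 fold change of Agr2 was -0.51 ± 0.25 in DKO (adjusted p = 0.153) and 0.47 ± 0.28 in WT (adjusted p = 0.213). Neither passed, nor did the difference between them, -0.98 ± 0.37 (adjusted p = 0.188). With baseline DKO replicates 1 and 2 left out, the value in DKO was -1.06 against replicate 3 alone.

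Muc13, a transmembrane mucin (chr16:33794037-33819934, plus strand), was at 2173, 2036 and 1906 CPM in DSS DKO and 2231, 2200 and 2136 CPM in DSS WT, against 2162, 2365 and 2051 CPM in baseline DKO and 1937 and 2272 CPM in baseline WT. All 4 groups overlapped, and the spread within each was small. The log2 fold change with DSS was -0.11 ± 0.11 in DKO (adjusted p = 0.521) and 0.06 ± 0.13 in WT (adjusted p = 0.760). With libraries scaled to equal pan-epithelial markers the value in DKO was 0.31 (adjusted p = 0.0415), a setting that moved the median of all genes by 0.42 in that comparison. An antisense gene, Gm15657, shares 184 exonic bases with Muc13. Best2, the anion channel (chr8:85007202-85014531, minus strand), was at 24.3, 25.2 and 20.8 CPM in DSS DKO and 24.5, 28.5 and 22.7 CPM in DSS WT, against 33.6, 44.9 and 36.7 CPM in baseline DKO and 33.9 and 25.4 CPM in baseline WT. The DKO groups did not overlap and the WT groups did. Best2 differed by a log2 fold change of -0.71 ± 0.16 in DKO (adjusted p = 0.00797) and -0.23 ± 0.18 in WT (adjusted p = 0.321). The DKO call of Best2 ended with scaling to pan-epithelial markers (-0.29, adjusted p = 0.178), with GC-dependent offsets (-0.17, adjusted p = 0.598) and without both baseline DKO libraries high in Rn18s-rs5, which leaves 1 in that group (-0.65, adjusted p = 0.113).

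**Figure D2:**
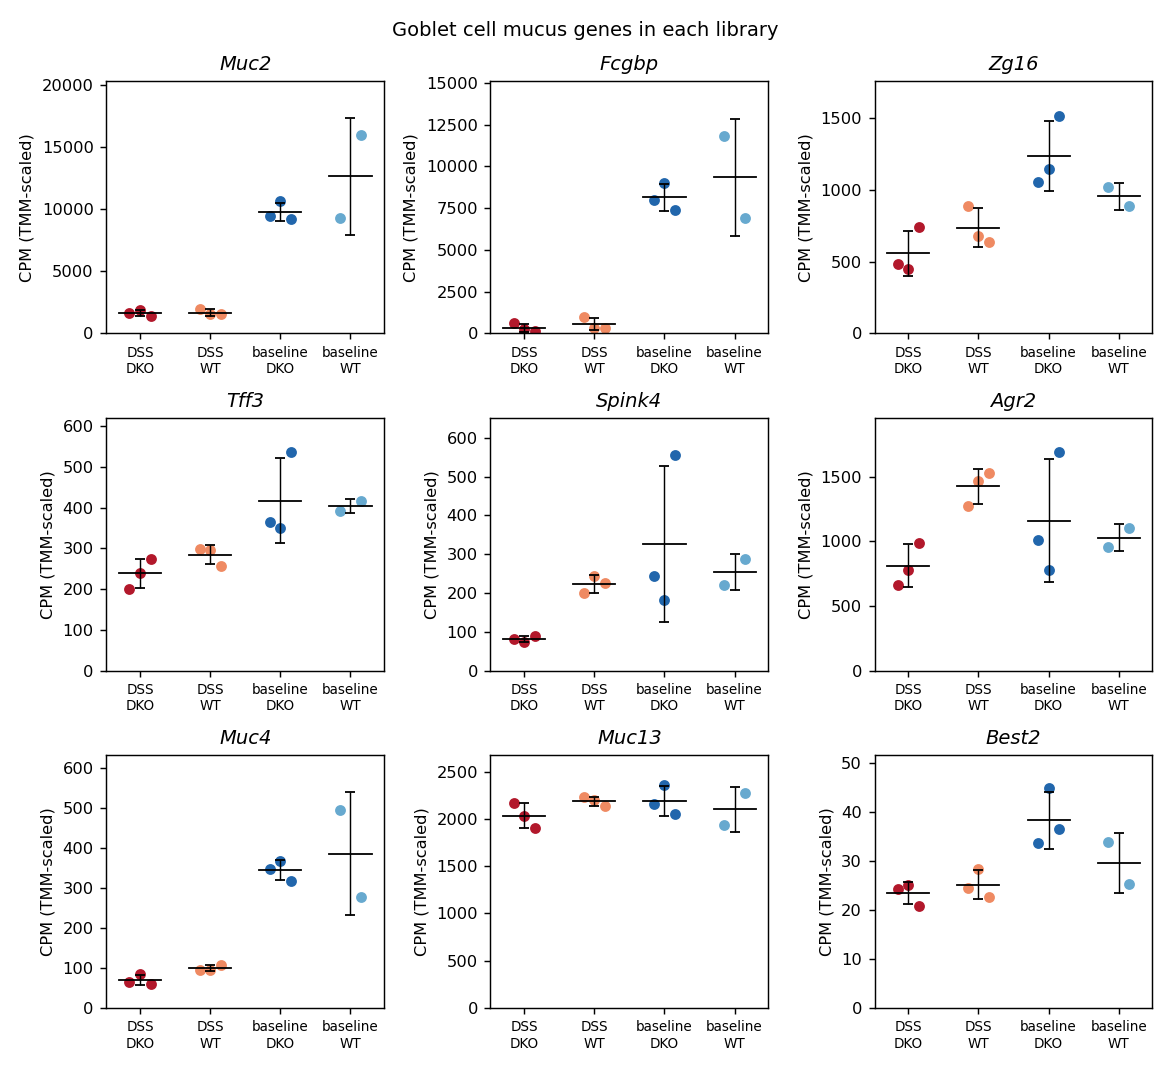
TMM-scaled CPM (linear axes from 0) of each mucus gene in each library (points), with the mean (line) and SD (bars) of each group, DSS DKO and DSS WT left of baseline DKO and baseline WT. Muc2, Fcgbp and Muc4 lie far lower in all DSS libraries than in baseline libraries, Spink4 is lowest in DSS DKO, at 72.4 to 88.9 CPM, and Muc13 lies between 1906 and 2365 CPM throughout.

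Comparing DSS DKO with DSS WT asks whether loss of the miR-181 clusters altered the mucus genes after injury. Spink4 was lower in DSS DKO, and of the other 8 genes 0 passed the test, where 5.98% of all genes tested were lower, 5.26% higher and 11.2% changed in either direction. The log2 fold change of Spink4 was -1.46 ± 0.35 (adjusted p = 0.0296), which is 2.75-fold lower. That call rests on few libraries. Its adjusted p was 0.113 without DSS DKO replicate 2, 0.0939 without DSS WT replicate 2 and 0.0800 without DSS WT replicate 3, at log2 fold changes of -1.38, -1.40 and -1.45. The DSS DKO and DSS WT libraries also did not overlap for Agr2, at -0.81 ± 0.25 (adjusted p = 0.0590), and Muc4, at -0.51 ± 0.19 (adjusted p = 0.115). Groups that did not overlap were found for 31.8% of all genes, against these 3 of the 9.

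For Agr2 the adjusted p was under the threshold in 9 of the other settings, such as limma-voom (0.0435) and DESeq2's Wald test (0.0179), and for Muc4 in 3. The log2 fold changes of the 9 genes between DSS DKO and DSS WT ran from -1.46 to -0.03, with a median of -0.40 against 0.03 for all genes. Those of the other genes were -0.78 ± 0.59 for Fcgbp, -0.40 ± 0.21 for Zg16, -0.26 ± 0.17 for Tff3, -0.10 ± 0.11 for Muc13 and -0.10 ± 0.16 for Best2, with adjusted p from 0.244 to 0.719. When scaled to pan-epithelial markers, Muc2 was at 0.07. The 7 pan-epithelial markers had a median of -0.14 in this comparison, and 0 of them passed. Since the values of the 9 genes come from the same libraries, their shared direction is not a test of the set. These values and those of DSS against baseline use the same DSS libraries and are not independent.

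Without DSS, no difference between the genotypes passed the test at these genes. In baseline DKO against baseline WT, 0 of the 9 genes passed in edgeR's test, 0 also at an unadjusted p under 0.05, and 0 with DESeq2's Wald test and limma-voom. In edgeR's test 0.026% of all genes passed (0.0104% higher and 0.0156% lower), so a count of 0 says little about the mucus genes themselves. Log2 fold changes ran from -0.37 ± 0.22 for Muc2 to 0.37 ± 0.18 for Best2, and Zg16 alone had groups that did not overlap, which 20.2% of all genes had. With 2 WT libraries the precision is low, and the SE reached 0.65 for Fcgbp. The difference between the DSS effects in DKO and in WT passed for 0 of the 9 genes, against 1.57% of all genes (0.773% higher and 0.794% lower). At an unadjusted p under 0.05 there were 3, Zg16 (-0.77 ± 0.31), Spink4 and Agr2. With DESeq2's Wald test 1 passed, Spink4 (-1.82, adjusted p = 0.00599), and with limma-voom 0. The larger count for DSS in DKO than in WT is thus not shown to be a difference between the genotypes.

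**Figure D3:**
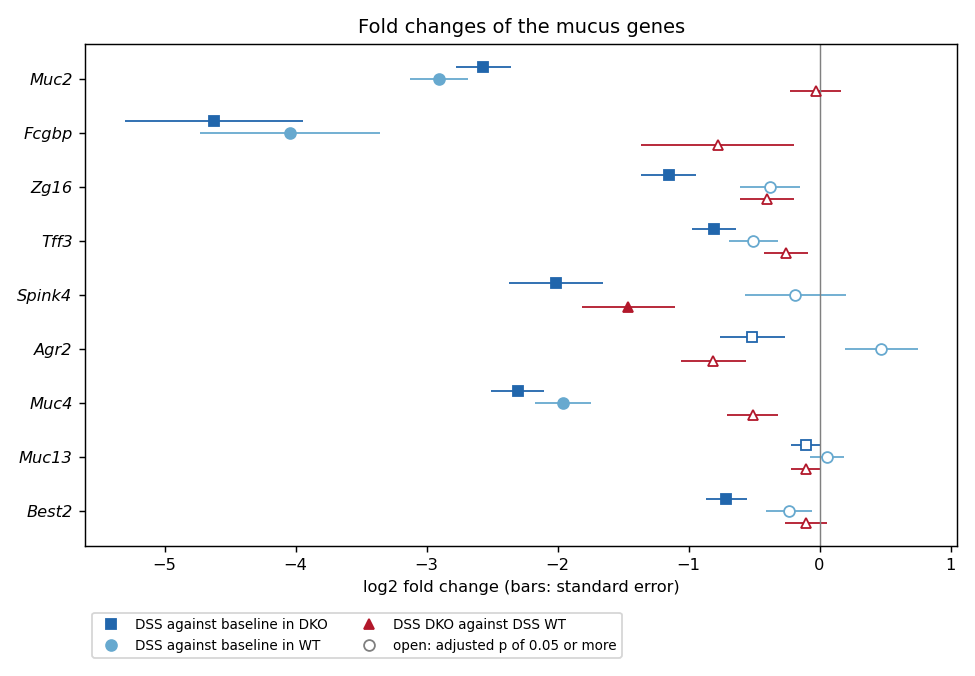
Log2 fold changes (bars: SE) of the 9 mucus genes for DSS against baseline in DKO (squares), DSS against baseline in WT (circles) and DSS DKO against DSS WT (triangles), filled where the adjusted p was under 0.05. Muc2, Fcgbp and Muc4 are filled for DSS in both genotypes, and Spink4 is the filled triangle, at -1.46.

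GC content moved with the DSS effect and with Fcgbp. Among genes whose log2 CPM averaged 5 or more, the median log2 fold change with DSS fell step by step with the GC of the longest transcript, in DKO to -0.63 in 98 genes over 60% GC, against 0.32 in 1528 genes up to 45% GC, and in WT to -1.16 against 0.48. Fcgbp is the richest in GC of the 9 at 57.7%, followed by Best2 at 57.5%, with Agr2 the poorest at 46.6%. The 52.3% of Muc2 comes from a fragment, so its place in this order and its values with GC-dependent offsets are uncertain. By library, the median centred log2 CPM of genes over 60% GC was 0.38, -0.06 and -0.92 in DSS DKO and -0.07, -1.15 and -1.06 in DSS WT, against 0.53 to 0.68 in baseline DKO and 0.45 to 0.49 in baseline WT. Within DSS DKO and within DSS WT, the library highest in these genes was also highest in Fcgbp.

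With offsets that remove this trend in each library, Fcgbp was at -4.23 (adjusted p = 5.58e-05) in DKO and -3.37 (adjusted p = 0.000313) in WT. Muc2 was at -2.47 and -2.82 and Muc4 at -2.33 and -2.03 in DKO and WT, and all of these calls held. Zg16 and Spink4 also kept their calls in DKO, and Spink4 was at -1.51 (adjusted p = 0.0133) in DSS DKO against DSS WT. The DKO calls of Tff3 (-0.53, adjusted p = 0.0677) and Best2 (-0.17, adjusted p = 0.598) were lost. In WT, Best2 changed sign, to 0.56 (adjusted p = 0.0869). What else the GC trend moved with was not tested.

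**Figure D4:**
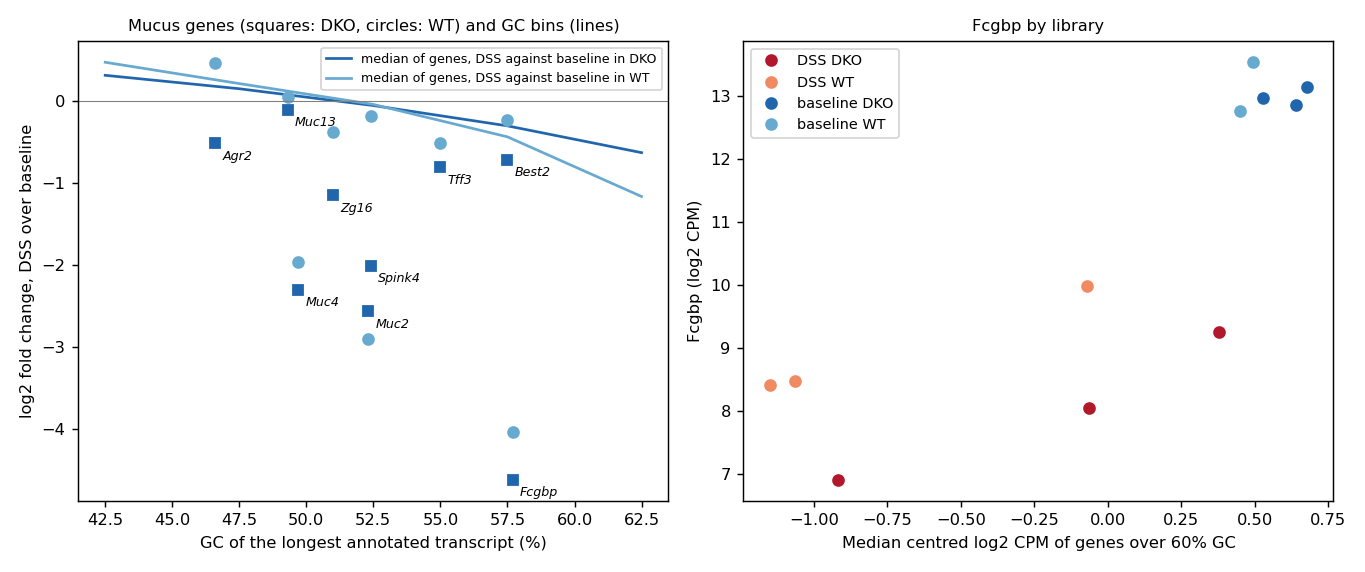
Left, log2 fold change with DSS of each mucus gene (squares DKO, circles WT) by GC percent of its longest annotated transcript, with lines for the median of genes whose log2 CPM averaged 5 or more, in bins of GC (the open-ended bins drawn 2.5 points below 45% and above 60%); right, log2 CPM of Fcgbp in each library by the median centred log2 CPM of genes over 60% GC. The lines slope down with GC, to -0.63 in DKO and -1.16 in WT, and Muc2, Muc4 and Fcgbp lie far below them.

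The genes most like each member were ranked over the 11 libraries by the mean absolute difference of centred log2 CPM, among 11213 genes. This difference is not scaled to how much a gene varies. Genes that vary widely thus tend to have larger values, and genes that vary little lie near each other. Muc2 was nearest to Vwf (0.26), Cyp2c69 (0.26) and Phlpp1 (0.28). Muc4 was nearest to Kcnf1 and Cyp2d37-ps (0.22 each) and to Capn9 (0.22), a calpain of the gastrointestinal tract. Agr2 was nearest to Plaat3 (0.13), Tspan13 (0.14) and Pla2g10 (0.14), Spink4 to Cela1 (0.24), Tff3 to Tpsg1 (0.10), Zg16 to Adh1 (0.13), Best2 to Plekho1 (0.13) and Muc13 to Qsox2 (0.05). For Fcgbp, which had the largest fall with DSS, the smallest difference was 0.50, to Mapk15, whose longest transcript has 61.7% GC. Among the 9 themselves the nearest pairs were Zg16 and Tff3 (0.18), Tff3 and Best2 (0.24) and Best2 and Muc13 (0.28), and the farthest were Fcgbp and Agr2 (2.25). Muc2 was nearest to Muc4 (0.37).

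Other secreted proteins of the mucus moved as follows. Of 12 tested genes, 2 were higher and 5 lower in DSS DKO than in DSS WT, with a median log2 fold change of -0.55. Over all genes tested, 5.26% were higher and 5.98% lower. Clca1, a metalloprotease that processes MUC2, was at 269, 203 and 225 CPM in DSS DKO and 2493, 2502 and 2043 CPM in DSS WT, against 14378 to 18891 CPM in baseline DKO and 14946 to 16499 CPM in baseline WT. It was thus lower in DSS DKO than in any other group, with no overlap, as were Ang4, a bactericidal ribonuclease, and Reg4, a lectin of deep crypt secretory cells. Ang4 was at 4.63 to 6.46 CPM in DSS DKO and 29.2 to 34.5 in DSS WT, and Reg4 at 28.3 to 68.3 CPM in DSS DKO, against 262 to 303 CPM in DSS WT. Dmbt1, a scavenger receptor that binds bacteria, was higher, at 17166 to 22544 CPM in DSS DKO and 10794 to 11855 CPM in DSS WT (log2 fold change 0.81 ± 0.15, adjusted p = 0.00679).

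With DSS, 1 of those 12 genes was higher and 7 were lower in DKO, and 1 was higher and 6 were lower in WT. Over all genes tested, 12.6% were higher and 11% lower in DKO, and 16.9% higher and 16.5% lower in WT. With scaling to pan-epithelial markers the WT count was 2 higher and 6 lower, where 22% of all genes were higher and 13.4% lower. Clca1 fell by 6.09 on the log2 scale in DKO (SE 0.20, adjusted p = 4.91e-09) and by 2.74 in WT (SE 0.18, adjusted p = 6.59e-06), and Itln1, the lectin intelectin, was at -3.39 ± 0.53 in WT (adjusted p = 0.00200). Of 5 other transmembrane mucins, 4 were lower with DSS in each genotype, where 11% of all genes were lower in DKO and 16.5% in WT. Muc3 was at 1627 to 2080 CPM in DSS DKO and 1574 to 1961 CPM in DSS WT, against 3896 to 6212 CPM in baseline DKO and 4524 to 5449 CPM in baseline WT. Muc3a, higher in DSS DKO than in DSS WT at 0.71 ± 0.14 (adjusted p = 0.00926), is a closely related entry, so the split of reads between them is uncertain. At baseline, 0 genes of any of the 6 mucus lists described here passed in edgeR's test. There 0.026% of all genes passed (0.0104% higher and 0.0156% lower), so these counts of 0 say little about the lists.

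Of 25 genes of mucin folding, endoplasmic reticulum stress and granule secretion, 1 was higher and 6 were lower in DSS DKO than in DSS WT. Over all genes, 5.26% were higher and 5.98% lower. Disulphide isomerases were among the 6 lower genes. Pdia4 was at 127 to 178 CPM in DSS DKO and 267 to 286 CPM in DSS WT (log2 fold change -0.93 ± 0.14, adjusted p = 0.00213), and Pdia6 at 327 to 359 CPM in DSS DKO, against 596 to 699 CPM in DSS WT (-0.90 ± 0.14, adjusted p = 0.00254). With DSS, 3 were higher and 7 lower in DKO (all genes: 12.6% and 11%), and 6 higher and 10 lower in WT (all genes: 16.9% and 16.5%). With scaling to pan-epithelial markers these counts were 8 higher and 5 lower in DKO, where 38.1% of all genes were higher and 5.94% lower, and 9 higher and 8 lower in WT, where 22% were higher and 13.4% lower. Hspa5, the endoplasmic reticulum chaperone BiP, rose in DKO by 0.86 ± 0.14 (adjusted p = 0.00134) and in WT by 1.49 ± 0.16 (adjusted p = 0.000165). The DKO call of Hspa5 was lost, at 0.78, without both baseline DKO libraries high in Rn18s-rs5 (adjusted p = 0.0654), a setting with 1 baseline DKO library. Capn9 was at -2.18 ± 0.13 in DKO and -1.69 ± 0.13 in WT (adjusted p = 1.67e-06 and 3.62e-05), and Bcas1 at -1.46 ± 0.11 and -1.43 ± 0.12 (adjusted p = 1.07e-05 and 5.76e-05). Xbp1, the stress-activated factor of secretory cells, was at 0.00 ± 0.13 in DSS DKO against DSS WT (adjusted p = 0.994).

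Of 25 O-glycosylation genes, 2 were higher and 2 lower in DSS DKO than in DSS WT (all genes: 5.26% and 5.98%). Gcnt4, a core 2 branching enzyme, was at 31.1 to 47.0 CPM in DSS DKO and 16.5 to 17.6 CPM in DSS WT (1.19 ± 0.18, adjusted p = 0.00234), and St3gal6, a sialyltransferase, at 57.9 to 74.6 CPM in DSS DKO, against 103 to 123 CPM in DSS WT (-0.76 ± 0.12, adjusted p = 0.00375). With DSS, 6 were higher and 5 lower in DKO (all genes: 12.6% and 11%), and 8 higher and 5 lower in WT (all genes: 16.9% and 16.5%). St3gal6 was lower in both, at -1.78 ± 0.13 and -0.96 ± 0.14 (adjusted p = 7.83e-06 and 0.000593). With scaling to pan-epithelial markers, the DKO count was 14 higher and 4 lower, where 38.1% of all genes were higher and 5.94% lower.

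Of 13 goblet cell fate factors, 0 were higher and 6 lower with DSS in DKO (all genes: 12.6% and 11%), and 1 was higher and 6 lower in WT (all genes: 16.9% and 16.5%). With scaling to pan-epithelial markers the WT count was 2 higher and 6 lower (all genes: 22% and 13.4%), and with GC-dependent offsets 3 higher and 6 lower (all genes: 13.5% and 15.8%). Cbfa2t3, a transcriptional corepressor, was at -2.20 ± 0.49 in DKO (adjusted p = 0.0125) and -2.54 ± 0.53 in WT (adjusted p = 0.00692), and the DKO call was lost, at a log2 fold change of -2.24, without both baseline DKO libraries high in Rn18s-rs5, which leaves 1 library in that group (adjusted p = 0.122). Atoh1, the factor that starts the secretory fate, did not pass, at -0.36 ± 0.14 in DKO (adjusted p = 0.0741) and 0.03 ± 0.15 in WT (adjusted p = 0.885), nor did Spdef, which drives goblet maturation, at -0.47 ± 0.25 and -0.60 ± 0.28 (adjusted p = 0.205 and 0.122). Atoh1, Spdef and Xbp1 were named after their values were seen. In DSS DKO against DSS WT, 0 fate factors were higher and 1 lower (all genes: 5.26% and 5.98%). The lower one was Foxa3, at 32.2 to 41.8 CPM in DSS DKO and 58.3 to 65.0 CPM in DSS WT (-0.78 ± 0.12, adjusted p = 0.00234).

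Of 13 genes of bicarbonate, chloride and water transport, 0 were higher and 4 lower in DSS DKO than in DSS WT (all genes: 5.26% and 5.98%). Ano1, a calcium-activated chloride channel, averaged 40.7 ± 10.96 CPM in DSS DKO and 105 ± 12.1 CPM in DSS WT (SD, n = 3 each), with no overlap (-1.37 ± 0.20, adjusted p = 0.00244). With DSS, 3 were higher and 5 lower in DKO (all genes: 12.6% and 11%), and 3 higher and 3 lower in WT (all genes: 16.9% and 16.5%). The DKO count was 5 higher and 3 lower with scaling to pan-epithelial markers, where 38.1% of all genes were higher and 5.94% lower. The WT count was 0 higher and 4 lower with GC-dependent offsets (all genes: 13.5% and 15.8%). Ano1 was at -2.44 ± 0.21 in DKO (adjusted p = 3.59e-05) and -1.07 ± 0.22 in WT (adjusted p = 0.00421, and 0.0675 without baseline WT replicate 1). Cftr, the chloride and bicarbonate channel of crypts, was higher, at 0.74 ± 0.14 in DKO (adjusted p = 0.00379) and 0.83 ± 0.16 in WT (adjusted p = 0.00316). The Cftr calls were lost in DKO, at 0.82, with 1 baseline DKO library, without both that were high in Rn18s-rs5 (adjusted p = 0.0796), and in WT, at 0.38, with GC-dependent offsets (adjusted p = 0.0583).

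Markers of other cells moved with the groups. The summed CPM of 5 T cell markers was 18.9 to 36.4 in DSS DKO and 73.5 to 84.6 in DSS WT, against 13.4 to 19.9 in baseline DKO and 14.3 to 24.6 in baseline WT. That of 5 neutrophil markers was 148 to 203 in DSS DKO and 47.2 to 55.4 in DSS WT, against 29.9 to 37.4 and 30.6 to 33.7 in baseline DKO and baseline WT. Ly6g made up most of that sum, at 113 to 144 CPM in DSS DKO and 25.4 to 39.0 CPM in DSS WT. Of the 5, Ly6g, S100a8 and S100a9 were higher in DSS DKO than in DSS WT, and Cxcr2 and Csf3r, at 1.31 and 1.25 CPM in DSS DKO and 1.02 and 1.57 CPM in DSS WT, did not pass. For 7 absorptive colonocyte markers the summed CPM was 5068 to 7120 in DSS DKO and 7786 to 8004 in DSS WT, against 6978 to 8267 in baseline DKO and 4772 to 7769 in baseline WT. Car1 made up most of that sum after DSS, averaging 3841 CPM in DSS DKO and 5671 CPM in DSS WT. Of the 7, 1 was higher and 1 lower in DSS DKO than in DSS WT, and 5 did not pass (all genes: 5.26% higher and 5.98% lower). Guca2a averaged 804 CPM in DSS DKO, against 424 CPM in DSS WT, and Aqp8 47.0 against 126 CPM. The 3 deep crypt secretory markers, of which Reg4 is one, summed to 180 to 186 in DSS DKO and 423 to 486 in DSS WT, against 485 to 789 in baseline DKO and 593 to 682 in baseline WT. Of these 3, 2 were lower in DSS DKO than in DSS WT and 1 did not pass. Reg4 averaged 45.7 CPM in DSS DKO, against 284 CPM in DSS WT, and Cd44 52.0 against 119 CPM. Kit went the other way, at 85.8 CPM in DSS DKO, against 61.6 CPM in DSS WT. The 3 mast cell markers summed to 6.19 to 15.5 in DSS DKO and 30.9 to 164 in DSS WT, against 2.32 to 5.57 in baseline DKO and 2.34 to 3.29 in baseline WT. Of the 5 T cell markers 5 were lower in DSS DKO than in DSS WT, and of the 3 mast cell markers 2. The 4 fibroblast markers summed to 142 to 256 in DSS DKO and 177 to 208 in DSS WT, against 130 to 318 in baseline DKO and 160 to 204 in baseline WT, but Col1a1 made up most of that sum. Of these 4, 3 were higher in DSS DKO than in DSS WT, with a median log2 fold change of 1.84. Dcn averaged 39.3 CPM in DSS DKO, against 8.45 CPM in DSS WT, Col3a1 18.8 CPM in DSS DKO, against 6.86 CPM in DSS WT, and Pdgfra 5.04 CPM in DSS DKO, against 0.479 CPM in DSS WT. Col1a1 averaged 132 CPM in DSS DKO, against 178 CPM in DSS WT, and did not pass (adjusted p = 0.391). No marker of these lists was at 0 in a whole group. Summed B and plasma cell, macrophage and endothelial markers were at most 13.7 CPM in any library. The part of these shifts in the mucus gene results was not tested.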

How the data were processed

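Per the labels' protocols, messages of Percoll-enriched colonic epithelial cells were pulled down with oligo(dT) beads before NEBNext Ultra II library preparation. The submitters' processing notes name STAR and the mm10 build. For the read counter, annotation and strand setting, the sources used here give nothing. One deposited table has the authors' raw counts per gene, whole numbers with unequal column totals and no normalization, and all of its 11 library columns were matched by name. Replicates all differed by more than sampling noise (chi-square per degree of freedom of 15.9 to 897). Counting error is small beside the spread between libraries at 919 or more counts, the lowest count of a mucus gene in any library.

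The deposited counts entered edgeR 4.0.16 (R 4.3.3) unchanged, with filterByExpr at a minimum count of 10 and TMM scaling. All 11 libraries shared 1 robust quasi-likelihood fit with a coefficient for each of the 4 groups, and each comparison used its two-sided F-test with Benjamini-Hochberg adjustment over all genes tested, at an adjusted p under 0.05. The SE is the log2 fold change over the square root of F. Settings tried beside it were DESeq2 1.42.0 size factors and its Wald test, limma 3.58.1 with voom, scaling to equal pan-epithelial markers, Rn18s-rs5 removed, no filter, the compared groups alone, each library left out, and a replicate block. Leaving out both baseline DKO libraries high in Rn18s-rs5 and GC-dependent offsets were added after seeing the data. Only edgeR's test was also run on simulated counts, with changes put into DSS DKO alone. Those counts held no GC trend, no excess of Rn18s-rs5 in single libraries and no broad shift with DSS, so that run cannot speak to these features.

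The members, the gene lists and the settings were chosen with earlier results of these data known. All 9 members are named. From each list, up to 3 rising and 3 falling genes with the lowest adjusted p per comparison could be named, and up to 3 genes most like each member. Positions, lengths and GC came from GENCODE M21 (GRCm38), which matched 18628 of the 19267 tested genes by symbol (96.7%), and promoters and microRNAs from RefSeq.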

Additional observations from a re-analysis of the deposited data

Results flagged for a closer look

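The interaction, a difference between DKO and WT in the change from baseline to DSS, passed edgeR's test in 7 genes of the mucus lists. It passed in 0 of the 9 mucus genes and in 1.57% of all genes tested. Since DSS libraries had a female and baseline libraries a male pattern, effects of DSS and of sex cannot be told apart here either. The log2 difference (DKO minus WT) was -3.35 ± 0.25 (SE) for Clca1 (adjusted p = 0.000253), which held in all 20 other settings. For Foxa3 it was -1.13 ± 0.18 (adjusted p = 0.0150), lost without DSS DKO replicate 2, baseline WT replicate 1 or baseline WT replicate 2 (values of -1.14 to -1.09, adjusted p of 0.0543 to 0.0729). For Muc3a it was 1.26 ± 0.21 (adjusted p = 0.0165), lost without DSS DKO replicate 2, DSS WT replicate 2 or 3, or either baseline WT library (1.11 to 1.39, adjusted p of 0.0531 to 0.0688).

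The difference was -2.50 ± 0.47 for Ang4 (adjusted p = 0.0325), lost without any of DSS DKO replicate 2, DSS WT replicates 2 and 3, baseline DKO replicate 1 and both baseline WT libraries, and with a replicate block (-2.65 to -2.30, adjusted p of 0.0522 to 0.169). It was -2.63 ± 0.50 for Reg4 (adjusted p = 0.0364), lost in the same settings and without baseline DKO replicate 3 (-2.77 to -2.32, adjusted p of 0.0554 to 0.181). It was -1.04 ± 0.21 for Pdia6 (adjusted p = 0.0304), lost without the same libraries as Ang4 and with scaling to pan-epithelial markers (-1.10 to -0.978 without libraries and -0.755 with that scaling, adjusted p of 0.0614 to 0.124). It was -0.996 ± 0.20 for Pdia4 (adjusted p = 0.0350), lost in 11 settings, among them each library left out in turn other than DSS DKO replicates 1 and 3 (-1.13 to -0.886 without libraries and -0.720 with scaling to pan-epithelial markers, adjusted p of 0.0537 to 0.168). Groups of 2 or 3 libraries are too small to test a single library as an outlier.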

How the results depend on the processing

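Of 936 values of the 9 genes under other settings, 866 kept their direction and side of the threshold, 36 crossed to an adjusted p under 0.05, 8 crossed to one above it and 26 changed sign, of which 1 passed the test. In DSS DKO against DSS WT, the 1 mucus gene called became 5 with no filter on low counts, 2 with DESeq2's Wald test, 2 with limma-voom, 2 with only the compared groups, 2 without both baseline DKO libraries high in Rn18s-rs5, and 0 to 3 leaving out single libraries (0 without DSS DKO replicate 2, DSS WT replicate 2 or DSS WT replicate 3, 2 without baseline DKO replicate 2 or 3 or either baseline WT library, and 3 without DSS DKO replicate 3). The 3 called for DSS in WT became 5 with no filter and 5 with only the compared groups. The 0 called in the interaction became 4 with no filter, 1 with DESeq2's Wald test and 1 without both baseline DKO libraries high in Rn18s-rs5. Leaving out single libraries gave 3 to 4 for DSS in WT, 7 for DSS in DKO, and 0 at baseline and in the interaction.

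Sign changes were these. With scaling to pan-epithelial markers, Muc2 was at 0.073 in DSS DKO against DSS WT, Tff3, Agr2 and Muc13 at -0.15, -0.017 and -0.12 at baseline, Muc13 at 0.12 in the interaction, and Muc13, which then passed, at 0.31 for DSS in DKO. With GC-dependent offsets, Tff3 was at -0.016 at baseline, and Muc13 and Best2 at -0.028 and 0.56 for DSS in WT, where Slc4a7, a bicarbonate transporter, was at -0.049 (0.39 and past the threshold as reported). Without both Rn18s-rs5 libraries Muc13 was at -0.038 at baseline. Leaving out single libraries, Muc2 ran from -0.13 to 0.12 in DSS DKO against DSS WT, from -0.71 to 0.085 at baseline and from -0.11 to 0.68 in the interaction, and Fcgbp from -0.52 to 0.24 at baseline and from -1.37 to 0.14 in the interaction. At baseline Tff3 ran from -0.18 to 0.16, Spink4 from -0.26 to 0.66, Agr2 from -0.20 to 0.39, Muc4 from -0.51 to 0.32 and Muc13 from -0.051 to 0.19. For DSS in WT Spink4 ran from -0.36 to 0.036 and Muc13 from -0.053 to 0.19. The cause was not tested.

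Same-numbered libraries were not shown to be paired, since the correlation of their deviations was 0.30, 0.019 and 0.20 between DSS DKO and DSS WT and -0.07 to 0.14 between other groups. With a replicate block, 2 mucus genes passed in DSS DKO against DSS WT, Spink4 and Agr2, 0 at baseline, 4 for DSS in WT, 7 for DSS in DKO and 0 in the interaction, and at baseline Fcgbp was at 0.23, Tff3 at -0.050 and Agr2 at -0.052. Over all genes, the counts called with scaling to pan-epithelial markers were 1395 higher and 760 lower (1013 and 1152 as reported) in DSS DKO against DSS WT, 4247 and 2578 (3260 and 3172) for DSS in WT, 7345 and 1144 (2430 and 2115) for DSS in DKO and 663 and 103 (149 and 153) in the interaction. The fit to the DSS libraries alone called 1372 genes against 2165. With no filter the calls were 79 at baseline and 1469 in the interaction, and with DESeq2's Wald test 15 and 1269, against 5 and 302, where the replicate block gave 3 at baseline and GC-dependent offsets 522 in the interaction. Without both Rn18s-rs5 libraries, which leaves 1 baseline DKO library assumed to vary like the other groups, the calls were 1, 957 and 86 at baseline, for DSS in DKO and in the interaction. Leaving out single libraries gave 691 (without DSS DKO replicate 2) to 3064 in DSS DKO against DSS WT, 1 to 5 at baseline, 2775 (without baseline WT replicate 1) to 7378 for DSS in WT, 2605 (without baseline DKO replicate 2) to 5788 for DSS in DKO, and 2 (without baseline WT replicate 1) to 1498 (without DSS DKO replicate 1) in the interaction.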
